A study of Mus musculus with 40 samples.

Results

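The last day of a 48 h culture with CpG was examined in WT mouse splenic B cells, by setting the 5 arrays labelled WT 48 h against the 5 arrays labelled WT 24 h. These 10 arrays were taken by their labels from the 40 bead arrays of the series, each of which measured RNA from 1 replicate. The cells came from the spleens of WT C57BL/6 mice, which carry Bank1, were enriched by magnetic depletion of other cells, and were cultured with CpG for 48 h or for 24 h, with 5 biological replicates at each time. Both groups received CpG, and cells cultured for 24 or 48 h without it were not analysed here, so CpG and time in culture cannot be told apart. The labels name both Bank1+/+ littermates and purchased mice as WT animals without saying which gave these arrays, and give no age. Each array holds a population of cells, so fewer cells of a type and less RNA per cell cannot be told apart. The same step in B cells of Bank1-/- mice, backcrossed to C57BL/6, with 5 arrays at 48 h and 5 at 24 h, was used only to see where the WT step differed.

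CpG DNA is sensed by TLR9 in the endosome and drives resting B cells to grow, copy their DNA and divide, and then in part to become antibody-secreting plasmablasts. Growth draws on ribosome biogenesis, nucleotide and amino acid supply and DNA replication. Differentiation draws on the regulators Irf4, Prdm1 (Blimp-1) and Xbp1, which widen the endoplasmic reticulum (ER), and plasma cells lose mature B cell genes and antigen presentation by MHC class II. Values below are log2 of the background-corrected, quantile-normalized probe intensity, called the level, and differences are WT 48 h minus WT 24 h with the standard error (SE) of the fit. Levels of different genes come from different probes and are not compared with each other.

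Of 9483 genes tested with limma over all 40 arrays, 5074 were called at a Benjamini-Hochberg adjusted p under 0.05, which is 53.5%. Of these, 2520 (26.6% of genes tested) were higher and 2554 (26.9%) were lower at 48 h. A call and a change of at least 2-fold came together in 1555 genes (16.4%), 784 (8.27%) higher and 771 (8.13%) lower. For 5224 genes (55.1%) the 5 arrays at 48 h lay entirely to one side of the 5 arrays at 24 h. The median difference over all genes was 0.0004394. With median centring in place of quantile normalization that median was 0.135, and the calls split into 2373 higher and 1076 lower, so the balance of rises and falls depends on the scaling. The counts for gene lists below are read against 26.6% higher and 26.9% lower among all genes, and cover only the members that passed the detection filter.

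The mean raw intensity was 394 to 507 at 48 h and 346 to 453 at 24 h, and 15808 to 16621 probes were detected at 48 h, against 14714 to 15749 at 24 h. The array WT 48 h replicate 1 stood apart, with a correlation over genes of 0.98 to 0.985 with the other arrays of its group, while no such correlation among the 24 h arrays was under 0.994. Without it 4950 genes were called, and list counts without it are given below where they differ by more than 1.5 times. The array labelled Bank1-/- 0 h replicate 5, outside the comparison, differed from the other 4 of its group, with a mean level of 9.00 for the MHC class II list (the others 11.73 to 11.96), 8.91 for the mitosis list (the others 6.82 to 6.89) and 9.99 for the replication list (the others 8.00 to 8.06), against 8.88, 8.86 and 9.98 in WT cells at 24 h. It enters the fit through the shared variance, and without it 5486 genes were called, 2739 higher and 2747 lower. The genes of the CD3 complex did not pass the detection filter, and 3 of 11 T cell markers did, 2 of them higher at 48 h, with a summed linear level of 1026 to 1168 at 48 h and 778.7 to 924.1 at 24 h. Of 16 myeloid markers 5 passed, without Itgam and Cd14, and 1 was higher. Of 8 NK cell markers Klrd1 and Prf1 passed, neither was called, and their summed level was 1715 to 3880 at 48 h and 742.2 to 2023 at 24 h. Of 10 dendritic cell markers 4 passed and 1 was lower, and of 7 platelet markers 5 passed and none was called. Of 8 erythroid markers 5 passed, with a summed level of 1025 to 2114 at 48 h and 722.7 to 801.2 at 24 h. The beta globin genes Hbb-bs and Hbb-bt rose by 0.86 and 1.23. Hba-a1, Slc4a1 and Sptb were not called, with differences of -0.11, -0.03 and 0.05. On WT 48 h replicate 1 Hbb-bs was 10.08 and Hbb-bt 9.64. On the other arrays at 48 h they were 8.67 to 9.28 and 8.67 to 9.01. The part of these cells in any other difference was not tested.

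**Figure D1:**
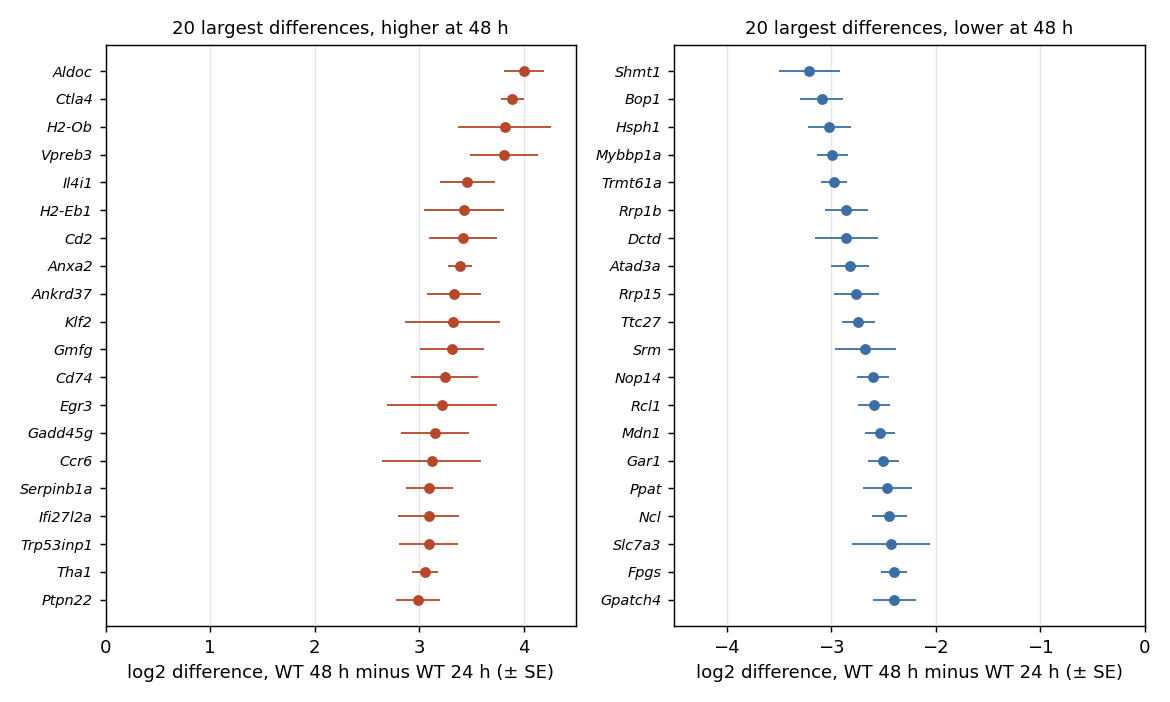
Differences in log2 level (WT 48 h minus WT 24 h, with the standard error of the fit as bars) for the 20 genes with the largest rises, left, and the 20 with the largest falls, right, among called genes whose groups did not overlap. The rises run up to 4.00 for Aldoc and the falls down to -3.21 for Shmt1.

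Aldoc, which encodes the glycolytic enzyme aldolase C, had levels of 10.6, 10.76, 11, 10.97 and 11.12 at 48 h, against 6.88, 6.91, 6.79, 7.01 and 6.85 at 24 h. The groups lay far apart, and the difference was 4.00 ± 0.19 (SE), or 16.1-fold (limma, adjusted p = 4.33e-19), and 2.26 as the mean of its detected probes. Ctla4 encodes an inhibitory receptor, known best from T cells, that competes for the CD28 ligands. It had levels of 10.53, 10.47, 10.59, 10.63 and 10.36 at 48 h, against 6.61, 6.61, 6.67, 6.5 and 6.71 at 24 h, a rise of 3.89 ± 0.11 (adjusted p = 4.88e-26). Its mean level was 6.75 at 0 h, 6.58 at 6 h, 6.62 at 24 h and 10.51 at 48 h, so within this course it was high at the last time alone. Vpreb3, which encodes a protein of B cell receptor assembly, averaged 10.33 ± 0.24 at 48 h and 6.52 ± 0.07 at 24 h (SD, n = 5 each).

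Il4i1, also among the 20 largest rises, encodes an amino acid oxidase that limits lymphocyte growth and rose by 3.46 ± 0.27, and Ptpn22 encodes a phosphatase that restrains antigen receptor signalling and rose by 2.99 ± 0.21. Klf2, a transcription factor gene of resting, circulating lymphocytes, averaged 11.28 ± 0.37 at 48 h and 7.96 ± 0.11 at 24 h (SD, n = 5 each). Ccr6, which encodes the receptor for CCL20, averaged 10.24 ± 0.20 at 48 h and 7.13 ± 0.09 at 24 h (SD, n = 5 each). The adhesion gene Cd2, the annexin gene Anxa2, the actin regulator gene Gmfg and the protease inhibitor gene Serpinb1a rose by 3.42, 3.39, 3.31 and 3.10. Gadd45g and Trp53inp1, both known as stress-induced genes that restrain growth, rose by 3.16 and 3.09, and Tha1, which encodes a threonine aldolase, by 3.05. Each of these genes was higher on all 5 arrays at 48 h than on any array at 24 h. Klf2 (12.83 to 13.32 at 0 h) and Ccr6 (11.6 to 11.94 at 0 h) were higher at 0 h than on any array at 48 h. The levels of Cd2, Gadd45g and Gmfg at 0 h overlapped those at 48 h. The other genes of this paragraph were lower at 0 h than at 48 h, and Il4i1 was 11.6 to 12.56 at 6 h.

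Shmt1, the gene with the largest fall, encodes the cytosolic serine hydroxymethyltransferase that feeds folate metabolism, and its levels were 6.88, 6.99, 7.11, 6.82 and 7.03 at 48 h, against 10.28, 10.09, 10.14, 10.23 and 10.15 at 24 h. The groups did not overlap and the level fell by 3.21 ± 0.30 (adjusted p = 1.4e-11). Its mean was 6.86 at 0 h, 9.83 at 6 h, 10.18 at 24 h and 6.97 at 48 h. Bop1, whose product processes the large ribosomal subunit, had levels of 7.59, 7.71, 7.59, 7.95 and 7.64 at 48 h, against 10.76, 10.85, 10.79, 10.92 and 10.6 at 24 h, a difference of -3.09 ± 0.20 (adjusted p = 2.43e-15). Dctd, which encodes the deaminase that makes dUMP, averaged 6.80 ± 0.11 at 48 h and 9.65 ± 0.08 at 24 h (SD, n = 5 each), and the spermidine synthase gene Srm averaged 8.76 ± 0.12 at 48 h and 11.43 ± 0.23 at 24 h (SD, n = 5 each). The heat shock protein gene Hsph1 fell by 3.02 ± 0.20, the tRNA methyltransferase gene Trmt61a fell by 2.98 ± 0.13 and the folate retention gene Fpgs fell by 2.40 ± 0.13. The amino acid transporter gene Slc7a3 and the mitochondrial ATPase gene Atad3a fell, with differences of -2.43 and -2.82. As the mean of all detected probes, Bop1 differed by -1.65 and Fpgs by -1.09.

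**Figure D2:**
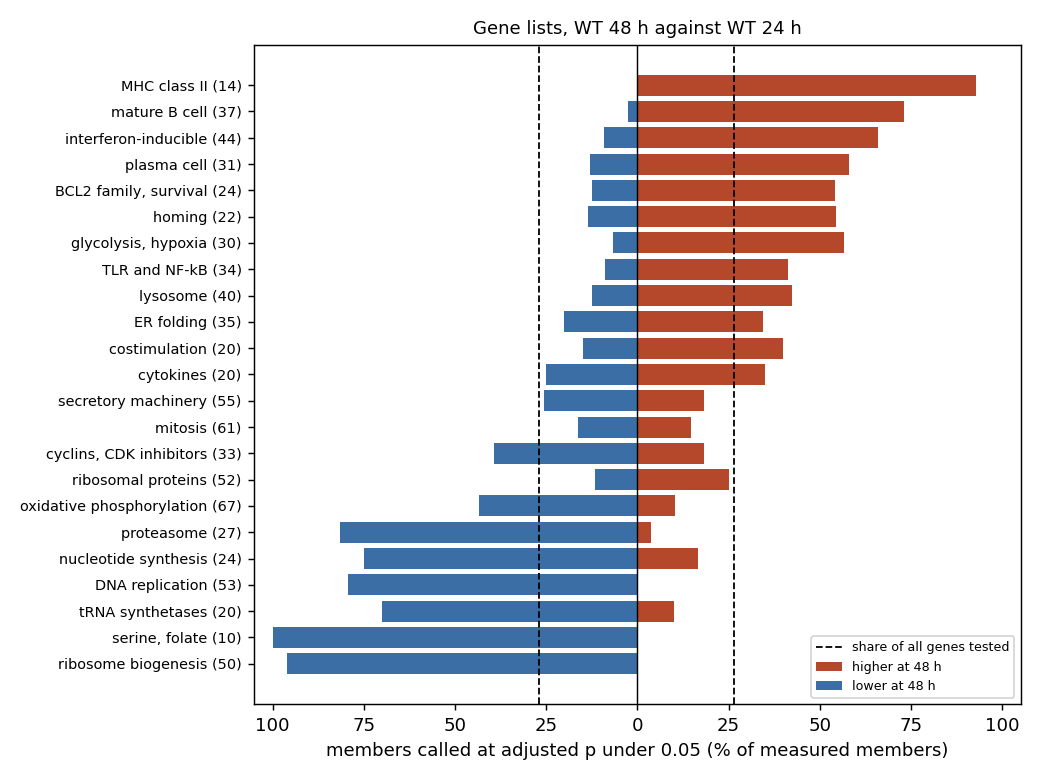
Share of the measured members of each gene list (number measured in brackets) called higher at 48 h, to the right, and lower at 48 h, to the left, with dashed lines at 26.6% and 26.9%, the shares of all genes tested. Of the MHC class II genes 92.9% were higher, and of the ribosome biogenesis genes 96% were lower.

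MHC class II genes, whose products load peptides and show them to helper T cells, were higher at 48 h almost throughout. Of 15 listed genes 14 were measured, 13 rose and 0 fell, with a median difference of 2.50. H2-Eb1, the beta chain of I-E, had levels of 13.12, 13.45, 13.54, 13.24 and 13.5 at 48 h, against 9.93, 9.81, 10.01, 9.88 and 10.05 at 24 h. Every array at 48 h was above every array at 24 h, and the difference was 3.43 ± 0.38, or 10.8-fold (adjusted p = 1.28e-09). Cd74, the invariant chain that escorts class II molecules, had levels of 13.92, 14.59, 14.33, 14.6 and 14.58 at 48 h, against 11.09, 11.14, 11.33, 11.1 and 11.13 at 24 h, and rose by 3.25 ± 0.32 without overlap. The chains H2-Aa and H2-Ab1 rose by 2.39 and 2.81, and the peptide editors H2-DMa, H2-DMb1 and H2-DMb2 by 2.45, 2.56 and 2.14. H2-Oa and H2-Ob, which form the B cell inhibitor of that editing, rose by 2.85 and 3.82. Ciita, the transactivator on which class II transcription depends, averaged 9.95 ± 0.20 at 48 h and 7.16 ± 0.15 at 24 h (SD, n = 5 each), a rise of 2.79 ± 0.31 (limma, adjusted p = 1.41e-09). The protease gene Ctss and the thiol reductase gene Ifi30 rose by 0.91 and 1.43, and the call of Ctss was lost with median centring (adjusted p = 0.084). Rfxap, a subunit of the RFX factor that binds class II promoters, had a difference of 0.03 (adjusted p = 0.867).

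These rises started from a low point. Mean levels of H2-Eb1 were 14.27 at 0 h, 11.99 at 6 h, 9.94 at 24 h and 13.37 at 48 h, those of Ciita were 10.59 at 0 h, 8.58 at 6 h, 7.16 at 24 h and 9.95 at 48 h, and those of H2-Ob were 12.84 at 0 h, 9.09 at 6 h, 7.59 at 24 h and 11.40 at 48 h. In these 3 genes the mean was lowest at 24 h and was lower at 48 h than at 0 h, which is a description without a test.

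Class II promoters are known for a pair of elements, the X box bound by RFX and the Y box bound by NF-Y, on which the Ciita product acts. The promoters of 4 genes that rose are shown because each holds both elements, from 250 bases before to 50 bases after the transcription start (RefSeq, GRCm38.p6), with matches to CTNGNAAC, part of the X box, and to TGATTGG, part of the Y box, in capitals. They lie at chr17:34238655-34238954 on the plus strand (H2-Ob), chr17:34305617-34305916 on the plus strand (H2-Eb1), chr17:34287774-34288073 on the minus strand (H2-Aa) and chr17:34152941-34153240 on the plus strand (H2-DMb1).
H2-Ob: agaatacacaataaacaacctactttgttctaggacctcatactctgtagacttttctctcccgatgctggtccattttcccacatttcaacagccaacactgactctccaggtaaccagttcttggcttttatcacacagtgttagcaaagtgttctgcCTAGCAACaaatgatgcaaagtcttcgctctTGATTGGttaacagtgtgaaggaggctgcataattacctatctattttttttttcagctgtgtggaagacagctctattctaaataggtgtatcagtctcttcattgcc
H2-Eb1: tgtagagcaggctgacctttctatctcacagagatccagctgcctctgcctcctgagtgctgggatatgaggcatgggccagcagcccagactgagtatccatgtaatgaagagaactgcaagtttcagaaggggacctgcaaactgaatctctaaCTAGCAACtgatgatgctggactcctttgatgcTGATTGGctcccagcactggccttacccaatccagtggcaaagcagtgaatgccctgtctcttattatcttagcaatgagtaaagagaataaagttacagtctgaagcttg
H2-Aa: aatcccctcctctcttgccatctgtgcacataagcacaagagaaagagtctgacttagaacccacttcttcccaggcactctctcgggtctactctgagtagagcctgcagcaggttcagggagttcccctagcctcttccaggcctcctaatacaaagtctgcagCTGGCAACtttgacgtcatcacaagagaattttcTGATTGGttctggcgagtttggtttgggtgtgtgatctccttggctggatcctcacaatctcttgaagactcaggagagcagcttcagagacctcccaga
H2-DMb1: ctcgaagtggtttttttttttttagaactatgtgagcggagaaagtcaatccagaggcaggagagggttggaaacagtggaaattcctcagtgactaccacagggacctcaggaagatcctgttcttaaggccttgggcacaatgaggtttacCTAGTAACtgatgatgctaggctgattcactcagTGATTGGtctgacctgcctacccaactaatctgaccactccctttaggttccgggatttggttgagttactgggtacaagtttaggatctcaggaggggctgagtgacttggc
Searched on both strands, CTNGNAAC and TGATTGG occurred together in the promoters of 4 of the 10 measured class II list genes with a RefSeq promoter, against 1.35% of 27025 symbols and 1.96% of 7770 genes tested. In the promoters shown the match to CTNGNAAC began at -90, -94, -84 and -97 from the start, and the match to TGATTGG at -59, -61, -50 and -63, so the 2 matches never overlapped. A match is a description of the sequence and not of binding.

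Genes of mature B cell identity rose with them. Of 37 measured members 27 rose and 1 fell, with a median difference of 1.09. H2-Oa and H2-Ob are counted both here and among the class II genes. Cd79b, a signalling chain of the B cell receptor, had levels of 13.55, 14.32, 13.73, 13.89 and 13.92 at 48 h, against 11.92, 11.77, 11.7, 11.64 and 11.85 at 24 h. The groups were apart, with a difference of 2.11 ± 0.23 (adjusted p = 9.37e-10). The inhibitory receptor genes Cd22, Fcgr2b and Btla rose by 2.10, 1.84 and 1.72, and the transcription factor gene Ikzf1 by 0.94 on the probe used, while another of its 5 probes fell. The 1 member that fell was Ikzf3, which fell by 0.48, and the mean of its 3 probes differed by 0.02 (adjusted p = 0.87). The call of Ikzf3 was also lost with median centring (adjusted p = 0.153). Bank1 itself, the scaffold gene deleted in the other genotype of the series, had levels of 11.17, 11.2, 11.44, 11.55 and 11.02 at 48 h, against 10.19, 10.23, 10.16, 10.27 and 10.09 at 24 h. Its arrays did not overlap between the times, it rose by 1.09 ± 0.26 (adjusted p = 0.000492), and its mean was 11.38 at 0 h, 7.81 at 6 h, 10.19 at 24 h and 11.28 at 48 h.

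**Figure D3:**
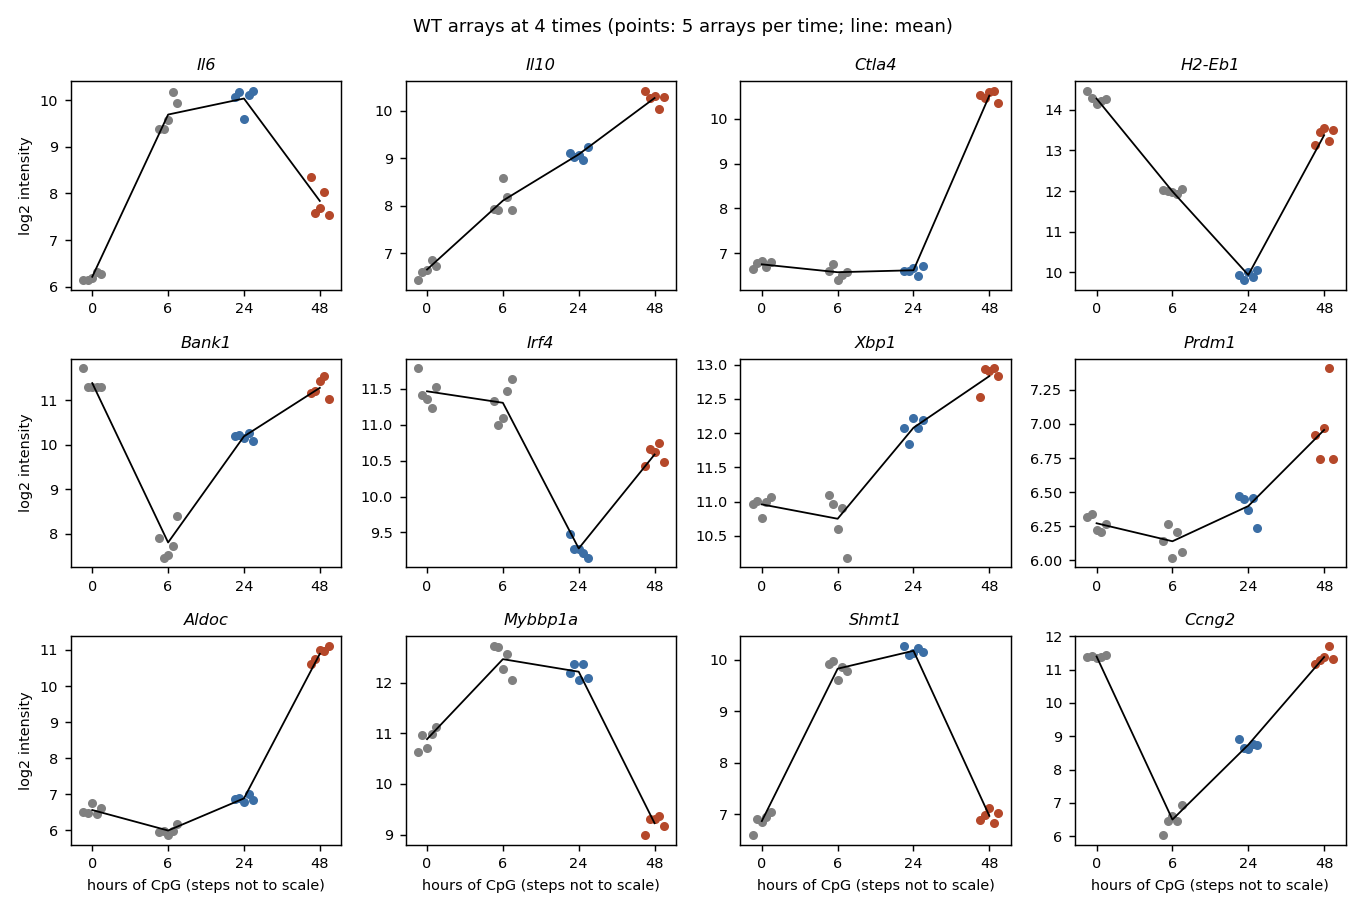
Log2 level of 12 genes on the 20 WT arrays at 0, 6, 24 and 48 h (points, 5 arrays per time; lines join the means). Il6 is lower and Il10 higher at 48 h than at 24 h, Ctla4 and Aldoc are high at 48 h alone, and H2-Eb1 and Irf4 have their lowest mean at 24 h.

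Genes that mark the plasma cell fate moved in part. Of 31 measured members 18 rose (58.1%) and 4 fell, and the median difference was 0.63. The largest rises counted in this list were those of Vpreb3 (3.81) and Trp53inp1 (3.09), described above by other roles. Prdm1, the repressor that commits B cells to secretion, had levels of 6.92, 6.74, 6.97, 7.41 and 6.74 at 48 h, against 6.47, 6.45, 6.37, 6.46 and 6.24 at 24 h, and was detected on 5 of 5 arrays at 48 h and 4 of 5 at 24 h. The groups were apart but close, with a rise of 0.56 ± 0.12 (adjusted p = 0.000245). Irf4 averaged 10.59 ± 0.13 at 48 h and 9.28 ± 0.12 at 24 h (SD, n = 5 each), a rise of 1.31 ± 0.20, and its mean was 11.47 at 0 h. Xbp1, which drives the ER programme, had levels of 12.53, 12.94, 12.9, 12.95 and 12.84 at 48 h, against 12.07, 11.84, 12.22, 12.07 and 12.19 at 24 h, and rose by 0.75 ± 0.17 (adjusted p = 0.000367) without overlap. Bhlha15 (Mist1), a target of Xbp1 in secretory cells, rose by 1.55 ± 0.11 and was detected on 5 of 5 arrays at 48 h and 4 of 5 at 24 h, and the coactivator gene Pou2af1 by 0.94 ± 0.16. Among surface receptors, Cd93 rose by 1.85, Slamf7 by 1.24 (0.82 as the mean of its probes) and Cxcr4, which guides plasma cells to bone marrow, by 2.26. Cxcr4 was 12.32 to 12.63 at 0 h, above its 9.53 to 9.81 at 48 h. Slamf7 was 7.43 to 7.81 at 0 h and 8.3 to 9.16 at 6 h, against 7.7 to 8.03 at 48 h. Cd93 was 9.09 to 9.39 at 0 h, below its 10.64 to 10.95 at 48 h.

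Other marks of secretion were low or did not pass. Sdc1 (CD138), the classical plasma cell surface marker, was detected on 1 of 5 arrays at 48 h and 0 of 5 at 24 h, and its difference was -0.05 (adjusted p = 0.69). Jchain, which joins IgM pentamers, had levels of 6.71, 6.41, 6.54, 6.96 and 6.48 at 48 h, against 5.96, 6.04, 6.02, 6.23 and 6.03 at 24 h. No array at 24 h detected it, so its rise was at least 1.21-fold (adjusted p = 0.0326), a call lost when any of 6 of the 10 arrays was left out (adjusted p between 0.0515 and 0.0917). The call of Jchain was also lost with the authors' deposited values and without the background correction (a difference of 0.36, adjusted p = 0.0615), with array brightness as a covariate (adjusted p = 0.0711) and with no filter on dim probes (adjusted p = 0.0643). Mzb1, an ER chaperone for immunoglobulin, averaged 13.87 ± 0.07 at 48 h and 13.45 ± 0.08 at 24 h (SD, n = 5 each). Its arrays did not overlap, but the difference of 0.42 was not called (limma, adjusted p = 0.128), and was when the 10 arrays were fitted alone (adjusted p = 3.8e-05) or the array Bank1-/- 0 h replicate 5 was left out (adjusted p = 0.0219). Ell2, an elongation factor gene that favours secreted immunoglobulin mRNA, differed by -0.10 (adjusted p = 0.73). Of the 4 members that fell, Slc3a2, the heavy chain of amino acid transporters, had the largest difference, -2.01 ± 0.23. Constant region genes of immunoglobulin were not analysed here.

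As lists, ER folding genes and the secretory machinery stood near the shares of all genes, with members called in both directions. Of 35 measured ER folding genes 12 rose, 7 fell and 16 did not pass, with a median of 0.18, and of 55 secretory genes 10 rose and 14 fell, with a median of -0.09. The risers included the prolyl isomerase gene Fkbp11 (1.11), the ER oxidase gene Ero1b (1.90), the stress sensor gene Ern1 (0.90) and the cochaperone gene Dnajb9 (0.61; adjusted p = 0.0732 with median centring). Hspa5 (BiP), the main ER chaperone, had levels of 10.04, 9.64, 10.06, 10.92 and 9.94 at 48 h, against 11.04, 11.38, 10.87, 11.18 and 10.62 at 24 h. The groups overlapped, and the difference of -0.90 ± 0.33 (adjusted p = 0.02) was not called without replicate 2 of either time (adjusted p = 0.0607 without that of 48 h and 0.053 without that of 24 h) or with median centring (adjusted p = 0.265). Sdf2l1, a cofactor of BiP, and Derl2, of the ER degradation pathway, fell, with differences of -1.03 and -1.03, and the call of Sdf2l1 was lost with median centring (adjusted p = 0.0763). Sec24d, a cargo adaptor of vesicles leaving the ER, rose by 1.95 ± 0.13, and the signal peptidase subunit gene Sec11c by 1.04 ± 0.15. The signal recognition particle gene Srp54a and the oligosaccharyltransferase genes Ddost and Rpn2 fell, with differences of -1.59, -1.28 and -0.91. The share that rose was 34.3% of the ER folding genes and 18.2% of the secretory genes, against 26.6% of all genes. The share that fell was 20% and 25.5%, against 26.9% of all genes.

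**Figure D4:**
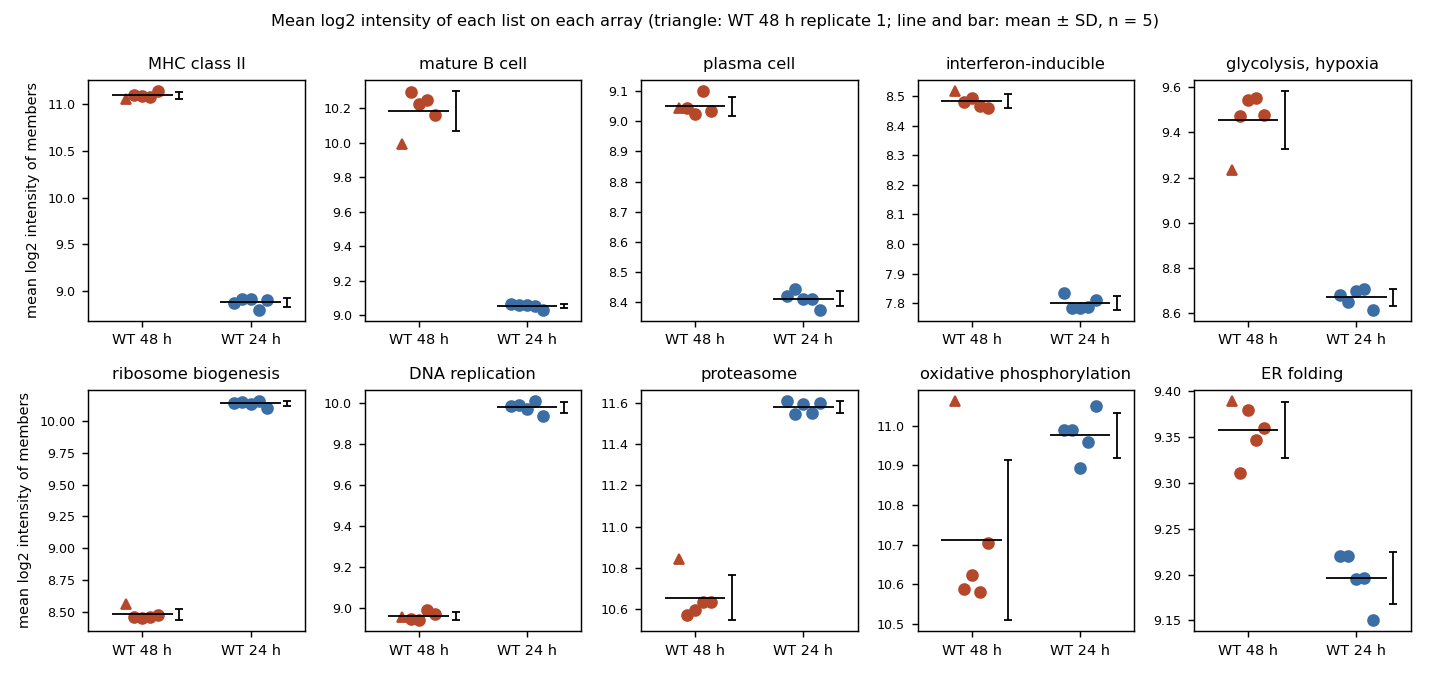
Mean log2 level of the measured members of 10 lists on each array, WT 48 h left and WT 24 h right (points, arrays; lines and bars, mean and SD, n = 5). The groups are apart in every panel but that of oxidative phosphorylation, where WT 48 h replicate 1 (triangle, 11.06) lies above all 24 h arrays.

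Ribosome biogenesis fell across the list. Of 50 measured factors 48 fell and 0 rose, with a median difference of -1.68. Mybbp1a, which encodes a nucleolar regulator of ribosomal RNA synthesis, had levels of 8.99, 9.31, 9.3, 9.36 and 9.17 at 48 h, against 12.19, 12.37, 12.05, 12.37 and 12.09 at 24 h. The groups lay far apart, and the level fell by 2.99 ± 0.15 (adjusted p = 5.45e-19). The processing factor genes Heatr1, Nop14, Gar1, Pes1 and Ppan fell, with differences of -2.25, -2.60, -2.50, -2.07 and -2.24. As the mean of its probes, Heatr1 differed by -1.43. The nucleolar genes Ncl, Rrp1b, Rrp15, Rcl1 and Mdn1, also among the 20 largest falls, fell, with differences of -2.45, -2.86, -2.76, -2.59 and -2.53. The mean level of the list was 9.07 at 0 h, 10.62 at 6 h, 10.14 at 24 h and 8.48 at 48 h. Of 52 measured ribosomal protein genes 13 rose and 6 fell, with a median of 0.08.

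Genes of the Myc network are known to set ribosome production. Of 10 measured members 4 rose (40%) and 2 fell (20%), with a median of 0.2. Myc fell by 0.79 ± 0.20 (adjusted p = 0.000902) and was detected on 2 of 5 arrays at 48 h and 5 of 5 at 24 h. Mxi1 and Mxd4, which encode repressors that compete with MYC for its partner, rose by 1.69 and 1.23 (Mxd4 by 0.74 as the mean of its probes). The promoter of Mybbp1a is shown as that of the ribosome biogenesis gene with the largest fall, among those named here with a RefSeq promoter, that holds the E box CACGTG, in capitals, which MYC and several other factors can bind (RefSeq, GRCm38.p6, chr11:72441077-72441376, plus strand).
Mybbp1a: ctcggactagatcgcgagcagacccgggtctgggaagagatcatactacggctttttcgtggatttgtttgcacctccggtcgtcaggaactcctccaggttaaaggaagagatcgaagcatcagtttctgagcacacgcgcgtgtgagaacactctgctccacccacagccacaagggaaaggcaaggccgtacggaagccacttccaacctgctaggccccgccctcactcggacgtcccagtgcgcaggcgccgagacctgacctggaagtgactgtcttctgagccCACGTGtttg
The match in Mybbp1a began at position 41, after the transcription start. Of 45 ribosome biogenesis genes with a RefSeq promoter 10 held CACGTG, which reads alike on both strands, against 8.09% of all symbols and 12.4% of genes tested.

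Genes of serine, folate and nucleotide synthesis mostly fell. All 10 measured serine, folate and asparagine genes fell (median -1.54), as did 18 of 24 nucleotide synthesis genes, with 4 rising (median -1.11). Mthfd2, the mitochondrial folate enzyme of dividing cells, averaged 10.51 ± 0.16 at 48 h and 12.51 ± 0.13 at 24 h (SD, n = 5 each). Umps, which makes UMP, averaged 7.89 ± 0.22 at 48 h and 10.20 ± 0.08 at 24 h (SD, n = 5 each), and Ppat and Gart, enzymes of purine synthesis, fell, with differences of -2.46 and -2.23. Of 20 aminoacyl-tRNA synthetase genes 14 fell and 2 rose (median -1.35). Iars, the isoleucine enzyme, fell by 2.10 ± 0.18, while Vars, the valine enzyme, rose by 1.29 ± 0.17. Among genes of the amino acid response, Asns fell by 1.46 ± 0.41, Trib3 fell by 1.73 ± 0.16 and their regulator Atf4 fell by 0.94 ± 0.13, and Ddit4, an inhibitor of mTOR signalling, rose by 1.61 ± 0.15. The call of Atf4 was lost with median centring (adjusted p = 0.0737). Of 18 measured genes of that response 6 rose and 8 fell (median 0.10). As the mean of all detected probes, Ppat differed by -1.47, Iars by -1.35, Trib3 by -0.82 and Vars by 0.30 (adjusted p = 0.0458 for Vars). Of 27 constitutive proteasome genes 22 fell and 1 rose (median -0.93).

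Replication genes mostly fell, and mitosis genes were called less often than genes at large. Of 53 measured replication genes 42 fell and 0 rose, with a median of -1.14. The mean level of the replication list was 7.99 at 0 h, 8.17 at 6 h, 9.98 at 24 h and 8.96 at 48 h. Pola2, a subunit of the polymerase that starts DNA strands, had levels of 7.76, 7.92, 7.95, 8.06 and 8.02 at 48 h, against 9.58, 9.74, 9.5, 9.57 and 9.6 at 24 h. The groups were far apart, with a difference of -1.65 ± 0.18 (adjusted p = 4.77e-10). Orc1, of the complex that marks where replication starts, fell by 1.60 ± 0.21, and Prim2, Pold1 and Gins4 fell, with differences of -1.27, -1.31 and -0.96. Of 61 measured mitosis genes 9 rose, 10 fell and 42 did not pass, with a median of -0.09, and both shares were below those of all genes. Cenpa, the histone variant of centromeres, rose by 1.20 ± 0.11, and Ncapd2 and Aspm, of chromosome condensation and the spindle, by 1.26 and 1.12. Mybl2, Cenpn and the cyclin gene Ccna2 fell, with differences of -1.43, -1.04 and -1.20. As the mean of all detected probes, Prim2 differed by -0.80, Ncapd2 by 0.77, Mybl2 by -0.77 and Cenpn by -0.67. The mean level of the mitosis list was 6.82 at 0 h, 6.72 at 6 h, 8.86 at 24 h and 8.78 at 48 h.

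Of 33 measured cell cycle regulators 6 rose and 13 fell. The risers were Ccng2, Btg1, Cdkn2d, Cdkn3, E2f2 and Rb1. Ccng2, a cyclin gene of resting cells, had levels of 11.17, 11.3, 11.37, 11.72 and 11.31 at 48 h, against 8.92, 8.66, 8.62, 8.77 and 8.74 at 24 h. The difference, with no overlap, was 2.63 ± 0.27 (adjusted p = 2.01e-10). At 0 h the levels of Ccng2 were 11.35 to 11.45. Btg1, an antiproliferative gene, rose by 1.99 ± 0.25 and Cdkn2d, an inhibitor of CDK4 and CDK6, by 1.83 ± 0.15. Ccne2, a cyclin gene of entry into DNA synthesis, fell by 1.96 ± 0.26, Cdk4 fell by 1.35 ± 0.27, E2f3 fell by 1.24 ± 0.16 and the phosphatase gene Cdc25a fell by 1.09 ± 0.21 (a difference of -0.59 as the mean of its probes). The inhibitor gene Cdkn1a (p21) had levels of 7.65, 7.73, 7.63, 7.67 and 7.36 at 48 h, against 8.14, 8.08, 7.97, 7.82 and 8.01 at 24 h. It fell by 0.39 ± 0.14 (adjusted p = 0.0197) and was not called without WT 48 h replicate 5 (adjusted p = 0.0663) with median centring (a difference of -0.16, adjusted p = 0.77) or as the mean of its probes (a difference of -0.11, adjusted p = 0.232). Of 24 histone genes 15 fell and 3 rose, and of 14 class switch and somatic mutation genes 10 fell and 1 rose. Of these, the uracil glycosylase gene Ung fell by 2.20 ± 0.29 (a difference of -1.27 as the mean of its probes) and the abasic endonuclease gene Apex1 fell by 2.02 ± 0.20.

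The promoter of Pold1, the catalytic subunit of DNA polymerase delta, is shown as that of the replication gene with the largest fall, among those named here, that holds an E2F element, TTTGGCGC or TTTCCCGC on either strand. Its match, in capitals, is TTTCCCGC read on the opposite strand (RefSeq, GRCm38.p6, chr7:44548766-44549065, minus strand).
Pold1: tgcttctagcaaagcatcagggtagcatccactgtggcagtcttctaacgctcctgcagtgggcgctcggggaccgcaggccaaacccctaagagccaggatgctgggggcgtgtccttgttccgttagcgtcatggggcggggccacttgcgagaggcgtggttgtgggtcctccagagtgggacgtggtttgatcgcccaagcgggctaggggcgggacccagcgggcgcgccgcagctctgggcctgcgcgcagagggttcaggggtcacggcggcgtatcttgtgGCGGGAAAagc
The match in Pold1 began at position 40, after the transcription start. Of 44 replication genes with a RefSeq promoter 8 held TTTCCCGC, against 1.24% of all symbols and 2.46% of genes tested. TTTGGCGC was held by 5 of them, against 0.585% of all symbols and 1.16% of genes tested.

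Among genes called, those of the joint glycolysis and hypoxia list mostly rose, and those of the respiratory chain mostly fell. Of 30 measured glycolysis and hypoxia response genes 17 rose and 2 fell (median 0.46). Glycolytic enzyme genes were split. Aldoc, Pgk1, Aldoa, Pkm, Pfkm, Hk1 and Eno2 rose. Gapdh, Tpi1, Ldha, Pgam1 and Pfkl were not called, with differences of 0.47, 0.405, 0.17, -0.18 and -0.28. Ankrd37, a target of the hypoxia-inducible factor HIF, had levels of 11.6, 11.94, 11.66, 11.79 and 11.53 at 48 h, against 8.39, 8.17, 8.33, 8.77 and 8.21 at 24 h. The arrays were far apart, with a rise of 3.33 ± 0.26, or 10.1-fold (adjusted p = 2.09e-13). Egln3, which encodes a HIF prolyl hydroxylase, was detected on no array at 24 h and rose at least 3.26-fold (adjusted p = 2.82e-13), and Bnip3l, Pdk1 and Kdm3a rose by 2.01, 1.54 and 1.95, and as the mean of all detected probes Pdk1 rose by 0.96 and Kdm3a by 1.07. The 2 falls were those of the glucose transporter gene Slc2a1, which fell by 0.48 ± 0.17, and of the phosphofructokinase gene Pfkp, which fell by 0.72 ± 0.30. Without WT 48 h replicate 1 the list had 17 rises and 0 falls (limma, adjusted p = 0.0738 for Slc2a1 and 0.107 for Pfkp). The call of Pfkp was lost when any of 9 of the 10 arrays was left out (adjusted p between 0.05 and 0.107), with array brightness as a covariate (adjusted p = 0.158), with median centring (adjusted p = 0.197) and with no filter on dim probes (adjusted p = 0.0877). With median centring that of Slc2a1 was lost too (adjusted p = 0.542). Of 67 respiratory chain genes 29 fell and 7 rose (median -0.32). Atp5b, of ATP synthase, fell by 1.19 ± 0.12 (a difference of -0.79 with median centring) and Ndufab1, of complex I, fell by 1.61 ± 0.19, while Uqcrh, of complex III, rose by 0.91 ± 0.20. The mean of the glycolysis list was 9.24 on WT 48 h replicate 1 and 9.47 to 9.55 on the other arrays at 48 h, and that of the respiratory list was 11.06 on that array and 10.58 to 10.70 on the others.

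Ankrd37 had the largest rise among the glycolysis and hypoxia genes named here whose promoter holds ACGTGC, a form of the hypoxia response element, and is shown with the match in capitals (RefSeq, GRCm38.p6, chr8:45999801-46000100, minus strand).
Ankrd37: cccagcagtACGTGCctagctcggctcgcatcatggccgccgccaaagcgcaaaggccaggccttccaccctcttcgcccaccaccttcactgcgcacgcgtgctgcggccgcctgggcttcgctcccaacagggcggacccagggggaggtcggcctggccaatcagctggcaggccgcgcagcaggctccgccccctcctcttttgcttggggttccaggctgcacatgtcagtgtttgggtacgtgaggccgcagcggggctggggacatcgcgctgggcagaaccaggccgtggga
Of 26 genes of the list with a RefSeq promoter 12 held ACGTGC on either strand, against 6.68% of all symbols and 9.92% of genes tested. This word can overlap the E box CACGTG.

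Cytokine genes split. Il6, the cytokine named in the title of the study, had levels of 8.36, 7.58, 7.69, 8.04 and 7.53 at 48 h, against 10.08, 10.18, 9.6, 10.12 and 10.21 at 24 h. The groups did not overlap, and the level fell by 2.20 ± 0.35 (adjusted p = 1.91e-06), while its mean was 6.21 at 0 h. Il10, an anti-inflammatory cytokine gene of regulatory B cells and plasmablasts, had levels of 10.42, 10.26, 10.31, 10.03 and 10.29 at 48 h, against 9.11, 9.03, 9.06, 8.96 and 9.24 at 24 h. It rose without overlap, by 1.18 ± 0.24 (adjusted p = 6.4e-05). Of 20 measured cytokine and chemokine genes 7 rose (35%) and 5 fell (25%), shares near the 26.6% and 26.9% of all genes. Il12a, a subunit of IL-12 and IL-35, rose by 1.92 ± 0.15, and Tgfb1 by 1.26 ± 0.31. The lymphotoxin gene Ltb rose by 1.65 ± 0.42 and was detected on 5 of 5 arrays at 48 h and 1 of 5 at 24 h. Tnf fell by 0.76 and was detected on 1 of 5 arrays at 48 h and 5 of 5 at 24 h, so the levels of both genes rest partly on values under the detection limit, and Ebi3, which encodes a partner chain of the Il12a product, fell by 0.91. Lta, the other lymphotoxin gene, was detected on no array at 48 h and was at least 1.3-fold lower there (adjusted p = 0.0185). The call of Lta was lost with the authors' deposited values and without the background correction (a difference of -0.34, adjusted p = 0.0639), as the mean of its probes (a difference of -0.31, adjusted p = 0.0515) and with median centring (adjusted p = 0.182). Ccl4 rose by 2.31 ± 0.32 and Ccl3, another chemokine gene, fell by 1.36 ± 0.30. Ccl4 was 12.2 to 12.67 at 0 h, above its 11.25 to 11.5 at 48 h. Ltb was 10.55 to 11.27 at 0 h, above its 7.63 to 8.18 at 48 h. Tgfb1 was also higher at 0 h than at 48 h, while Il10 and Il12a were lower.

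Surface and signalling genes of activation moved in both directions. Of 20 measured costimulatory and activation genes 8 rose and 3 fell. Il2ra (CD25) rose by 1.59 ± 0.11, Slamf1 by 1.17 ± 0.15, Cd69 by 1.03 ± 0.21 and Cd83 by 0.88 ± 0.17. As the mean of all detected probes Il2ra rose by 0.98, Slamf1 by 0.67 and Cd69 by 0.51. Cd69 was 13.02 to 13.23 at 0 h, above its 12.03 to 12.28 at 48 h. Cd83 was 12.65 to 13.26 at 0 h, which overlapped its 12.53 to 12.77 at 48 h. Il2ra and Slamf1 were lower at 0 h than at 48 h. The transferrin receptor gene Tfrc fell by 1.00 ± 0.11, and Cd44 fell by 0.94 ± 0.25, although Cd44 was not called as the mean of its probes (a difference of -0.30, adjusted p = 0.132) or with median centring (adjusted p = 0.0756). Cd40 fell by 0.31 ± 0.13 (adjusted p = 0.0345), a call lost when any of 6 of the 10 arrays was left out, with median centring (a difference of -0.16, adjusted p = 0.739), with array brightness as a covariate (adjusted p = 0.0569) and with no filter on dim probes (adjusted p = 0.0544). Cd86, which encodes a ligand of CD28 and CTLA4, averaged 7.50 ± 0.05 at 48 h and 6.93 ± 0.11 at 24 h (SD, n = 5 each) without overlap, but the difference of 0.58 was not called (limma, adjusted p = 0.387). It was called when the 10 arrays were fitted alone (adjusted p = 1.88e-06) and without the array Bank1-/- 0 h replicate 5 (adjusted p = 2.87e-05). Cd86 was 12.25 to 12.46 at 0 h, above its 7.46 to 7.56 at 48 h. Cd80 was detected on none of the 10 arrays. Of 34 NF-kB and Toll-like receptor pathway genes 14 rose and 3 fell (median 0.32), against 13 and 1 without WT 48 h replicate 1. The endosomal receptor gene Tlr7 rose by 1.77, Tlr1 by 1.43, the receptor chaperone gene Unc93b1 by 1.31 and the atypical inhibitor gene Bcl3 by 2.14.

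Interferon-inducible genes, also named in the title, mostly rose. Of 44 measured 29 rose and 4 fell (median 0.68). Gbp3, which encodes a guanylate-binding protein of cell-autonomous defence, had levels of 10.31, 10.11, 10.36, 10.35 and 10.08 at 48 h, against 8.08, 8.12, 7.96, 8.09 and 8.2 at 24 h, a rise of 2.15 ± 0.16 (adjusted p = 5.8e-14) with no overlap. Ifi27l2a rose by 3.09 ± 0.29, Samd9l by 1.97 ± 0.17 and the immunoproteasome gene Psmb9 by 1.29 ± 0.11, while Oasl1 and the tetherin gene Bst2 fell, with differences of -0.90 ± 0.14 and -0.81 ± 0.27. Oasl1 differed by -0.59 as the mean of its probes, and the call of Bst2 was lost with array brightness as a covariate (adjusted p = 0.0593). The promoter of Gbp3 is shown as that of the member with the largest rise, among those named here, that holds a form of the interferon-stimulated response element, TTTC repeated after any 2 bases, on either strand, with 2 overlapping matches in capitals (RefSeq, GRCm38.p6, chr3:142559794-142560093, plus strand).
Gbp3: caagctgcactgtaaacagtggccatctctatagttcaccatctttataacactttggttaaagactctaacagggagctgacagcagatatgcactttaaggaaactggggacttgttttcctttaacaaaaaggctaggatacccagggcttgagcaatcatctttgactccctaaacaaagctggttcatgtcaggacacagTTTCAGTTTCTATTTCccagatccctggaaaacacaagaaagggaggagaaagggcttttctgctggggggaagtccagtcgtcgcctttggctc
Of 35 members with a RefSeq promoter 18 held it, against 3.99% of all symbols and 3.85% of genes tested.

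Of 37 genes around p38, the MNK kinases and eIF4E, the translation factor of the title, 15 rose and 8 fell (median 0.09). Eif4e, which encodes the factor that binds the mRNA cap, had levels of 7.31, 7.23, 6.93, 7.04 and 7.07 at 48 h, against 8.24, 8.32, 8.08, 8.23 and 8.14 at 24 h, a difference of -1.08 ± 0.14 (adjusted p = 4.74e-08) without overlap. The helicase gene Eif4a1 fell by 1.66 ± 0.17. A pair of eIF4E repressor genes went apart, Eif4ebp1 with a difference of -1.74 ± 0.24 and Eif4ebp2 with a rise of 1.84 ± 0.31. Zfp36 (tristetraprolin), which destabilises mRNAs such as that of TNF, rose by 1.83 ± 0.32.

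Of 24 BCL2 family and death genes 13 rose and 3 fell (median 0.45). The death-promoting genes Bcl2l11 (BIM) and Bmf rose by 2.11 ± 0.23 and 1.08 ± 0.20, and the protective gene Mcl1 by 0.90 ± 0.12, while Bcl2l11 rose by 0.70 as the mean of its probes. Bcl2 rose by 0.81 ± 0.17 on the probe used, while others of its 6 probes fell and their mean was not called (a difference of 0.12, adjusted p = 0.304). The call of Bcl2 was lost with median centring too (adjusted p = 0.0517). Of 22 homing genes 12 rose and 3 fell (median 0.37). Cxcr5, the receptor gene that guides B cells to follicles, rose by 1.65 ± 0.22 and Gpr183, which guides them to follicle edges, by 1.85 ± 0.30, and Ccr7 differed by -0.01 (adjusted p = 0.968). Of 27 early response and heat shock genes 8 rose (29.6%) and 7 fell (25.9%), shares near the 26.6% and 26.9% of all genes. The early response genes Egr3, Egr1 and Egr2 rose by 3.22, 1.88 and 1.65, and the chaperone genes Hspd1 and Hsp90aa1 fell, with differences of -2.05 and -2.04. At 0 h the levels of Egr3, Egr1 and Egr2 were 12.44 to 12.73, 13.81 to 14.23 and 11.1 to 11.35. Those at 48 h were lower, at 9.82 to 10, 10.51 to 10.98 and 8.17 to 8.35. Of 29 p53 target genes 10 rose (34.5%) and 7 fell (24.1%). Of 33 sterol and lipid synthesis genes 8 rose (24.2%) and 3 fell (9.09%), and of 11 amino acid transporter genes 4 rose (36.4%) and 6 fell (54.5%). Of 40 lysosome and autophagy genes 17 rose and 5 fell (median 0.19), with the protease gene Ctsh rising by 1.88 and Psap by 1.55.

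**Figure D5:**
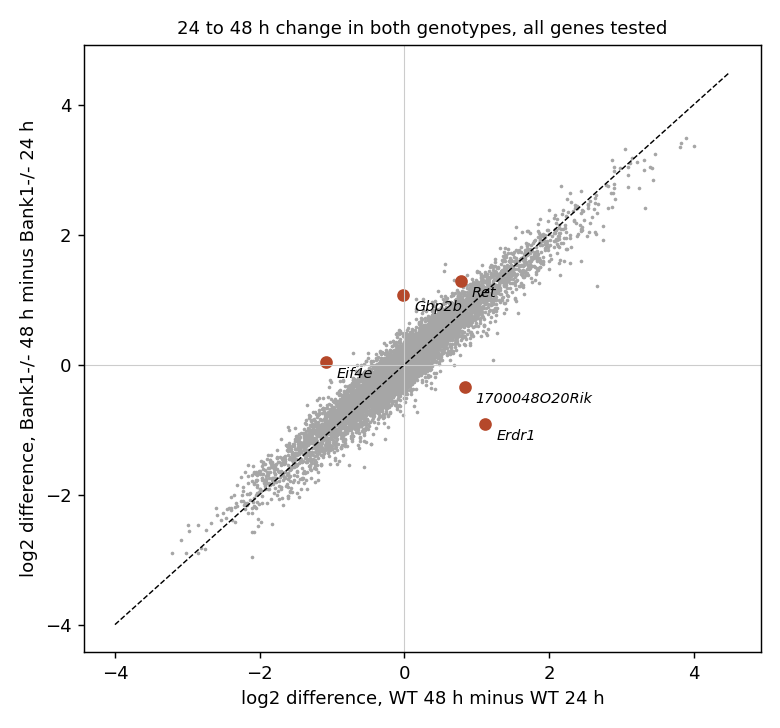
Difference of 48 h minus 24 h in WT cells (x axis) against that in Bank1-/- cells (y axis) for 9483 genes, in log2 units, with the line of equality dashed. Most genes lie along the line, and the 5 genes called to differ between the genotypes are named.

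The same step in Bank1-/- cells, measured on 10 other arrays, called 5110 genes (53.9%), with 2686 (28.3%) higher and 2424 (25.6%) lower. Of all genes tested 2246 (23.7%) were called higher in both genotypes, 2094 (22.1%) lower in both and 2 (0.0211%) in opposite directions. The shared calls were 85.5% of the WT calls and 84.9% of the Bank1-/- calls. Testing the difference of the steps called 5 genes (0.0527%), with 257 at an unadjusted p under 0.05. Erdr1 changed by 1.12 in WT and -0.92 in Bank1-/- cells, a difference of 2.04 ± 0.21 (adjusted p = 9.62e-08). The transcript 1700048O20Rik changed by 0.83 in WT and -0.34 in Bank1-/- cells, a difference of 1.17 ± 0.21. Eif4e changed by -1.08 in WT and 0.04 in Bank1-/- cells, a difference of -1.13 ± 0.20. Gbp2b, another guanylate-binding protein gene, detected on 3 of 5 WT arrays at 48 h and 3 of 5 at 24 h, changed by -0.01 in WT and 1.07 in Bank1-/- cells, a difference of -1.08 ± 0.19. These 3 differences each had an adjusted p of 0.00563. The receptor kinase gene Ret was not detected on any WT array at 24 h, so its WT rise was at least 1.3-fold (adjusted p = 5.6e-11), and the size of its step difference (adjusted p = 0.0445) rests on values under the detection limit. The call of Ret was lost when any of 14 of the 20 arrays was left out, and with median centring all 5 calls were lost. As the Bank1-/- mice were backcrossed, loss of Bank1 and DNA carried along beside it cannot be told apart in these differences.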

How the data were processed

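Splenic B cell RNA was measured on Illumina bead arrays, 5 arrays for each genotype and time. The deposited table of the authors holds a raw intensity for each of 45281 probes per array. The deposited log2 values of the authors equal the log2 of the quantile-normalized intensity and served as an alternative. Intensities were corrected with normexp (offset 50), quantile normalized and taken to log2. A probe was detected above the 99th percentile of 1287 olfactory receptor probes on its array and passed the filter with 5 or more detections among 40 arrays. The probe with the highest mean stood for a gene, giving 9483 genes. Of the probes 34885 had 1 symbol, 18 several and 10378 none. limma 3.58.1 (R 4.3.3) was fitted with 8 group means over 40 arrays, with Benjamini-Hochberg adjustment over all genes. "At least" folds use the detection limit. 8 columns of a later time matched no sample and were not used. The gene lists, the members and the comparison were chosen with earlier results of these data known. Named genes were Bank1, Il6, the 20 largest rises and falls, the most strongly called members of each list, any member of small lists and of the plasma cell, ER, cell cycle, cytokine and costimulation lists, the strongest step differences, and the beta globin genes, chosen after their values were seen. The alternatives were other background, normalization, filter, probe, block, weight and array choices. Replicates are called biological by the labels. SE and p-values rest on the spread within all 8 groups, Bank1-/- 0 h replicate 5 included, and not on the 10 WT arrays alone. An SE can therefore exceed the spread within the WT groups. For Egr3 it was 0.53, with levels of 9.82 to 10 at 48 h and 6.53 to 6.79 at 24 h.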

Additional observations from a re-analysis of the deposited data

Results flagged for a closer look

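An array far from the other 4 of its group, by Dixon's test at 0.71 of the range, was found in 34 of the 428 groups of 5 examined for the genes named and the lists, or 7.94%, where chance gives about 1 in 20. Of these, 26 lay at 48 h, and 18 of them on the array WT 48 h replicate 1. On that array the level was high for Gmfg (11.75, the others 11.03 to 11.12), Ifi27l2a (12.94, the others 12.18 to 12.30), Tnf (6.35, the others 6.20 to 6.24), 1700048O20Rik (8.54, the others 7.46 to 7.73), the mean of the histone list (8.34, the others 8.06 to 8.08), the mean of the ribosome biogenesis list (8.56, the others 8.45 to 8.47), the mean of the respiratory chain list (11.06, the others 10.58 to 10.70), the mean of the proteasome list (10.84, the others 10.57 to 10.64). It was low for Klf2 (10.63, the others 11.32 to 11.53), Ptpn22 (11.07, the others 11.54 to 11.73), Xbp1 (12.53, the others 12.84 to 12.95), Slc2a1 (9.02, the others 9.49 to 9.52), Bcl3 (9.78, the others 10.23 to 10.41), Zfp36 (10.28, the others 10.63 to 10.66), Erdr1 (11.81, the others 12.49 to 12.71), Vars (10.85, the others 11.79 to 11.85), the mean of the NF-kB list (8.54, the others 8.68 to 8.71), the mean of the glycolysis and hypoxia list (9.24, the others 9.47 to 9.55). On other arrays at 48 h the value that stood apart was that of H2-Ob in replicate 2 (11.63, the others 11.33 to 11.38), H2-DMb2 in replicate 4 (10.38, the others 10.78 to 10.90), H2-Oa in replicate 4 (10.18, the others 10.31 to 10.36), Slc3a2 in replicate 4 (8.07, the others 7.28 to 7.44), Aspm in replicate 4 (9.42, the others 8.91 to 9.00), Cdkn1a in replicate 5 (7.36, the others 7.63 to 7.73), Ndufab1 in replicate 2 (10.73, the others 10.56 to 10.59), the mean of the plasma cell list in replicate 4 (9.10, the others 9.02 to 9.04). At 24 h it was that of Il6 in replicate 3 (9.60, the others 10.08 to 10.21), Cd74 in replicate 3 (11.33, the others 11.09 to 11.14), Gar1 in replicate 1 (12.04, the others 12.32 to 12.38), Sdf2l1 in replicate 5 (10.05, the others 9.73 to 9.81), Tfrc in replicate 2 (10.75, the others 10.96 to 11.04), Tlr1 in replicate 4 (7.70, the others 7.47 to 7.53), Unc93b1 in replicate 1 (9.60, the others 9.79 to 9.81), Oasl1 in replicate 4 (7.32, the others 7.59 to 7.65).

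The change over the last day differed between the genotypes for 5 genes by the test of the difference itself (limma over 40 arrays). WT minus Bank1-/-, the difference was 2.04 for Erdr1, 1.17 for 1700048O20Rik, -1.13 for Eif4e, -1.08 for Gbp2b and -0.52 for Ret, and their adjusted p-values ran between 9.62e-08 and 0.0445. Ret was not detected on any WT array at 24 h, so the size of its value is not a measured difference. On the array WT 48 h replicate 1 both Erdr1 and 1700048O20Rik stood apart, as given above. Loss of Bank1 and DNA carried beside it in the backcross cannot be told apart for any of these genes.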

How the results depend on the processing

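The count of 5074 WT calls stayed between 3449 and 6868 under the alternatives, and between 4791 and 4950 with any 1 of the 10 WT arrays left out, but was 5486 (2739 higher, 2747 lower) without the array Bank1-/- 0 h replicate 5. The 2520 higher calls lay between 2377 and 2493 with 1 of the 10 WT arrays left out, and the 2554 lower calls between 2409 and 2457. With median centring 1076 WT genes were lower, and 3185 genes were called in Bank1-/- cells, 630 of them lower. The step difference, called for 5 genes, gave 27 with array weights, 8 with the arrays of the groups alone, 3 with probes detected on all arrays of a WT group and, with limma after median centring, 0, with 81 at an unadjusted p under 0.05, 4 to 6 with 1 of the 20 arrays of both steps left out, and 7 without Bank1-/- 0 h replicate 5. Replicate numbers do not clearly mark the same animal across times, and the main fit did not pair the arrays. Deviations of same-numbered arrays from their group means correlated at 0.26, -0.081, 0.27, 0.32 and 0.18, over 0.1 in 4 of 5 pairs. Of the 5 arrays at 48 h, 2 correlated best with their own number, so pairing is not settled. With the replicate number as a block the WT calls were 6641 on the 10 arrays and 5091 on all arrays, and the step difference gave 7 and 4. Of 172 named genes called, 157 kept their call and direction in every alternative run and 15 did not. Calls were lost with median centring (Atf4, Ctss, Dnajb9, Sdf2l1, Hspa5, Ikzf3, Cdkn1a, Slc2a1, Cd40, Cd44, Bcl2, Pfkp, Lta), with array brightness as a covariate (Bst2, Cd40, Jchain, Pfkp), with no filter on dim probes (Cd40, Jchain, Pfkp), without the background correction (Jchain, Lta), with the mean of probes (Bcl2, Cd44, Cdkn1a, Ikzf3, Lta) and with 1 array left out (Cd40, Cdkn1a, Hspa5, Jchain, Pfkp, Slc2a1). Ikzf3 reversed, to 0.0233 with the mean of its probes. List medians, taken relative to the median of all genes, moved by more than their spread between arrays as follows. With array brightness as a covariate the medians were -0.58 (amino acid transporters), 0.94 (mature B cell genes), -0.74 (class switch genes), 0.0679 (early response and heat shock), 0.16 (p53 targets). With no filter on dim probes the medians were -0.11 (amino acid transporters), 0.0738 (ER folding), 0.19 (glycolysis and hypoxia), 0.25 (homing), 0.37 (interferon-inducible genes), 0.12 (Myc network), -0.0321 (p53 targets), 0.49 (plasma cell genes), -1.60 (ribosome biogenesis). Without the background correction, and alike with the authors' deposited log2 values, the medians were -1.20 (tRNA synthetases), 0.38 (BCL2 family), -0.54 (histones), 0.25 (homing), 0.50 (interferon-inducible genes), 0.14 (lysosome), 2.37 (MHC class II), 0.12 (Myc network), -1.0 (nucleotide synthesis), 0.49 (plasma cell genes), -1.02 (replication), -1.49 (ribosome biogenesis). With the mean of all detected probes the medians were -0.90 (tRNA synthetases), 0.70 (mature B cell genes), 0.36 (BCL2 family), 0.35 (glycolysis and hypoxia), 0.59 (interferon-inducible genes), 0.30 (lysosome), -1.0 (nucleotide synthesis), 0.49 (plasma cell genes), -0.95 (replication), -1.55 (ribosome biogenesis), -0.0302 (secretory genes), -1.43 (serine and folate genes). With probes detected on all arrays of WT 48 h or WT 24 h the medians were -1.50 (tRNA synthetases), 0.60 (costimulatory genes), -0.28 (cell cycle regulators), 0.91 (cytokines), 0.66 (glycolysis and hypoxia), 0.77 (interferon-inducible genes), 0.24 (lysosome), 0.75 (plasma cell genes). With median centring the medians were 0.55 (BCL2 family), -0.0489 (cytokines), 0.25 (ER folding), 0.59 (glycolysis and hypoxia), 0.44 (homing), 0.00671 (early response and heat shock), 0.81 (interferon-inducible genes), 0.24 (lysosome), 2.61 (MHC class II), 0.40 (NF-kB), 0.18 (p38 and eIF4E genes), 0.15 (p53 targets), -0.0311 (secretory genes). With array weights the medians were 0.53 (plasma cell genes). The cause of these moves was not tested. The number of arrays and the detection limit bound what can be seen. On simulated data for this comparison (9483 genes) 29 of 66 genes changed by 0.5 were recovered, 64 of 67 changed by 1 and 67 of 67 changed by 2. No other genes were changed in the simulation, whereas 53.5% were called in the data. The adjustment was therefore stricter in the simulation, and these rates are not those of the data.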
